A study of Rattus norvegicus with 6 samples.

Results

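The 6 genes described here encode part of the defence against reactive oxygen species: Nfe2l2, Hmox1, Nqo1, Cat, Sod1 and Sod2. They were taken by identifier, with earlier results of these data known, as 6 of the 26405 rat genes in a table of RNA sequencing counts. The identifiers are ENSRNOG00000001548, ENSRNOG00000014117, ENSRNOG00000012772, ENSRNOG00000008364, ENSRNOG00000002115 and ENSRNOG00000019048, in the same order. Their symbols came with the definition of the gene set, since the deposited table holds identifiers alone. All 6 passed the filter on low counts.

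The libraries come from 3 cultured rat cell types, bought as separate primary cell products, with 2 libraries each. Astrocytes, the support cells of the brain, and oligodendrocyte precursor cells (OPCs), which give rise to myelin-forming cells, were passaged 1 time, after 8 days, and grown for 6 more days. The neurons had no passage and 7 days in culture. Cell type cannot be told apart from product, nor in neurons from passage and time in culture. The labels describe no treatment or genetic change, and give no strain, sex or age and do not state that replicates were separate cultures. The p-values hold for the spread of these libraries, which may be technical. Marker genes of the 3 cell types could not be matched to identifiers, so the labels were not checked against markers.

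Nfe2l2 encodes Nrf2, a transcription factor held in check by Keap1 and released under oxidative or electrophilic stress. Nrf2 pairs with small Maf proteins at antioxidant response elements and drives genes such as Hmox1, which encodes the haem-degrading enzyme heme oxygenase 1, and Nqo1, which encodes a quinone reductase. Superoxide is turned into hydrogen peroxide by the copper-zinc enzyme Sod1 in the cytosol and the manganese enzyme Sod2 in mitochondria, and catalase, the product of Cat, breaks hydrogen peroxide down in peroxisomes. In the brain, astrocytes are known for a strong Nrf2 response and for supplying neurons with glutathione precursors.

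Promoter sequences of 5 of the 6 genes were found in RefSeq (build GRCr8). The 250 bases before the annotated start are printed for 4 genes, because they set the 2 genes whose levels differed most between cell types, Nfe2l2 and Nqo1, beside Cat, which differed least, and Sod2, which held the match to the antioxidant response element. Capitals mark matches, on either strand, to the core of the antioxidant response element, the AP-1 site, the TATA box, the CCAAT box and the GC box, whose letters are given after the sequences.
Nfe2l2, chr3:81029000-81029249, minus strand: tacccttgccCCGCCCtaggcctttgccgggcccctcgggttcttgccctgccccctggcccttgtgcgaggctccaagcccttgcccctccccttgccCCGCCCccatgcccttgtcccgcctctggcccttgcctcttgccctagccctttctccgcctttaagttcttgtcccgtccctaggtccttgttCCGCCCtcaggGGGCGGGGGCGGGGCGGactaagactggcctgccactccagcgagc
Nqo1, chr19:52220268-52220517, minus strand: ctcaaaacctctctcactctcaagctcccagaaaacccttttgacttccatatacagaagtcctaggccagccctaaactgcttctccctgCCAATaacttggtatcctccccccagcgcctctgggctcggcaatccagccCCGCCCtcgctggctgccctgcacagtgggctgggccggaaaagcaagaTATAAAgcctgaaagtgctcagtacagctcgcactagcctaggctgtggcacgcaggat
Cat, chr3:110329527-110329776, minus strand: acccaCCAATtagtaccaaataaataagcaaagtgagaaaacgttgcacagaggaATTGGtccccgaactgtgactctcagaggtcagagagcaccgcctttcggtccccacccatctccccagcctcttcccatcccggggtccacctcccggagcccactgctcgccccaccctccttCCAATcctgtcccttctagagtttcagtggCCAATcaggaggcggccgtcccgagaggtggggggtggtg
Sod2, chr1:50050169-50050418, minus strand: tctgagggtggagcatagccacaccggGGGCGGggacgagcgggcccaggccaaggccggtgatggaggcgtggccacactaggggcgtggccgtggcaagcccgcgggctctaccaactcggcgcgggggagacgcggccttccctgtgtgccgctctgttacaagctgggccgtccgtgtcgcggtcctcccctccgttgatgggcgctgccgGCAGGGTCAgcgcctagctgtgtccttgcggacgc

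The Nfe2l2 promoter held 6 GC boxes (GGGCGG), and the 3 nearest the start lay end to end, the last pair sharing a base. It had no TATA box and no CCAAT box. Nqo1 had 1 TATA box (TATAAA), beginning 59 bases before the start, together with 1 CCAAT box and 1 GC box. Cat had 4 boxes of the letters CCAAT and no GC box. Sod1, not printed, had a TATA box beginning 28 bases before the start, and 1 CCAAT and 1 GC box. The core letters of the antioxidant response element, TGACNNNGC, occurred in Sod2 alone of the 5 promoters, on the opposite strand and beginning 35 bases before the start. No promoter of the 5 held an AP-1 site, searched as TGANTCA. Over 33469 RefSeq rat promoter windows of the same 250 bases, 10.1% held the antioxidant response element letters, 30.5% a GC box, 12.9% a TATA box, 34.0% a CCAAT box and 6.34% an AP-1 site. A match describes the letters and is not a shown binding site. Only these 250 bases were searched, so a missing match says nothing about letters further from the start.

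Library totals ranged from 22265917 counts in OPC replicate 1 to 102861667 in astrocyte replicate 1. Levels are given as CPM, a gene's count relative to its library total, after that total was scaled by TMM, a factor that evens out differences in RNA composition. They are not corrected for gene length, so levels are compared between cell types for 1 gene at a time. In bulk RNA, fewer cells of a type and less RNA per cell cannot be told apart. By arithmetic mean CPM all 6 genes stood in the order astrocytes, neurons, OPCs, but by mean log2 CPM Hmox1 was higher in OPCs (2.57) than in neurons (2.29). For all 6, both neuron libraries lay below both astrocyte libraries, as they did for 36.8% of all genes tested, and so did both OPC libraries, as for 34.4%. Neuron and OPC libraries overlapped for all 6, whereas 57.1% of all genes did not overlap there.

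**Figure D1:**
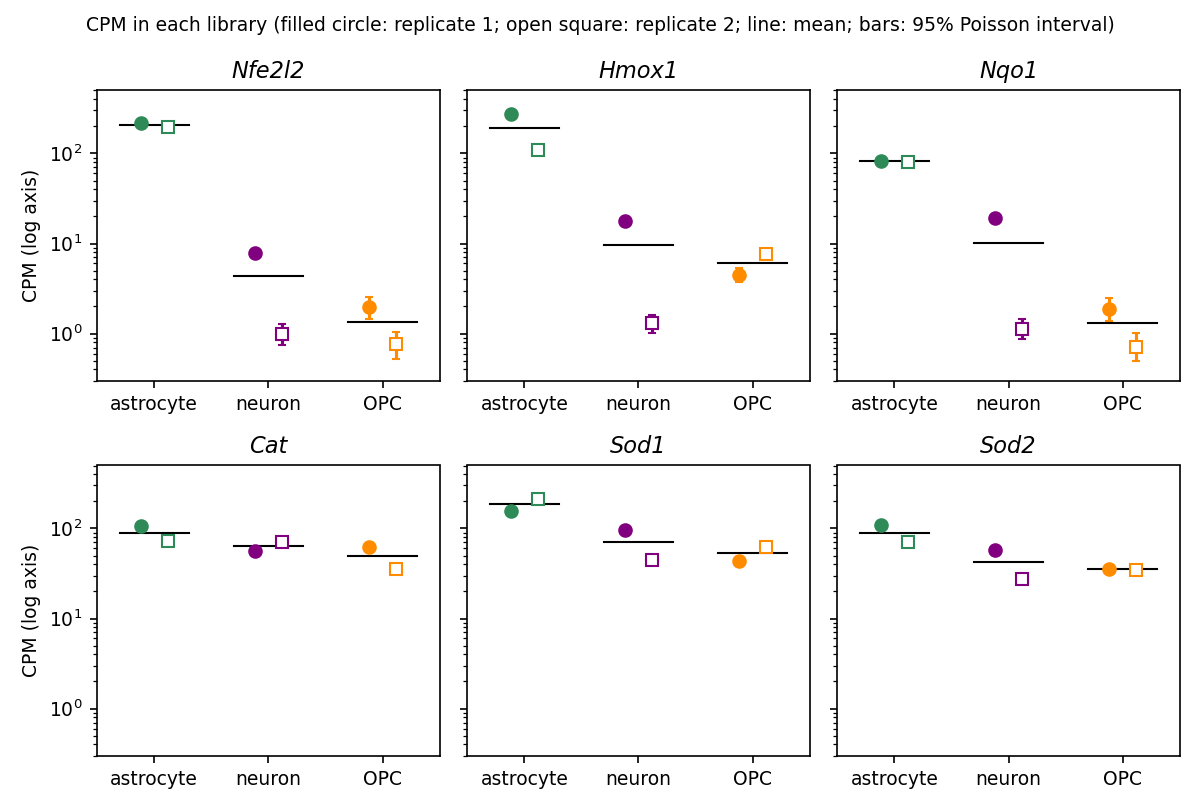
CPM on a log axis for each gene in the 3 cell types; points are single libraries with 95% Poisson intervals of counting error, and horizontal lines are means of 2 libraries. Nfe2l2, Hmox1 and Nqo1 lie between 79.5 and 272 CPM in astrocytes and at 19.4 CPM or less elsewhere, whereas Cat, Sod1 and Sod2 lie between 27.2 and 212 CPM in all libraries.

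The Nrf2 gene itself was abundant in astrocytes and sparse in both other cell types. Nfe2l2 had 17784 and 8171 counts in the astrocyte libraries, 709 and 57 in the neuron libraries, and 51 and 35 in the OPC libraries. In CPM these were 218 and 195 in astrocytes, 7.75 and 0.986 in neurons, and 1.96 and 0.758 in OPCs. The highest library outside astrocytes, neuron replicate 1, reached 3.76% of the astrocyte mean, and the lowest, OPC replicate 2, 0.367%. Astrocytes thus stood at 206 ± 16.5 CPM (SD, n = 2), neurons at 4.37 ± 4.78 and OPCs at 1.36 ± 0.852.

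Nfe2l2 was 47.0-fold lower in neurons than in astrocytes, with a fitted log2 difference of -5.55 (SE 1.02; adjusted p = 0.00688 by edgeR). In OPCs it was 155-fold lower, with a fitted log2 difference of -7.27 (SE 1.11; adjusted p = 0.0042 by edgeR). Of the 18206 genes tested, 2.30% had a lower fold change than Nfe2l2 in neurons and 2.13% in OPCs. Both calls held in each alternative setting that kept 2 libraries in each cell type compared. The adjusted p ran from 3.06e-09 (DESeq2) to 0.0456 (edgeR) for neurons and from 6.21e-15 (DESeq2) to 0.0306 (edgeR) for OPCs. Fits with 1 library omitted leave 1 library in its cell type, whose own spread then drops out. A pass in such a fit is not read as support. The size moved with single libraries: for neurons it was -7.70 with neuron replicate 1 omitted and -4.73 with neuron replicate 2 omitted, and for OPCs -8.08 and -6.64 without OPC replicates 1 and 2.

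Hmox1, the haem-degrading target of Nrf2, was also highest in astrocytes, but its astrocyte replicates were further apart. It stood at 272 and 109 CPM in the astrocyte libraries, 17.9 and 1.30 in the neuron libraries, and 4.50 and 7.69 in the OPC libraries. The lower astrocyte library remained above every neuron and OPC library. Group levels were 190.5 ± 116 CPM in astrocytes, 9.59 ± 11.7 in neurons and 6.09 ± 2.25 in OPCs (SD, n = 2 each). Unlike Nfe2l2 and Nqo1, its level in OPC replicate 2 was above that in OPC replicate 1.

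Hmox1 was 19.8-fold lower in neurons than in astrocytes, with a fitted log2 difference of -4.31 (SE 1.16; adjusted p = 0.0296 by edgeR), and 31.2-fold lower in OPCs, at -4.96 ± 1.20 (SE; edgeR adjusted p = 0.023). The neuron value was -7.20 with neuron replicate 1 omitted and -3.41 with neuron replicate 2 omitted. The OPC call held in a fit of the 4 libraries compared (edgeR adjusted p = 0.0011), which leaves out the spread of the neuron libraries. The neuron call was lost without astrocyte replicate 1 (log2 fold change -3.41, edgeR adjusted p = 0.131), without astrocyte replicate 2 (-4.81, 0.0579), without OPC replicate 2 (-4.27, 0.0508), without OPC replicate 1, in a fit of 4 libraries (0.0505) and with no low-count filter (0.169). The OPC call was lost without astrocyte replicate 1 (-4.04, 0.105), without OPC replicate 1 (-4.63, 0.141), without OPC replicate 2 (-5.34, 0.113), with no low-count filter (0.161) and when replicate number entered the fit as a block (-4.50, 0.0528).

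Nqo1, the quinone reductase gene, was close to equal in the astrocyte replicates and far apart in the neuron replicates. Its level was 83.3 and 79.5 CPM in astrocytes, 19.4 and 1.12 in neurons, and 1.89 and 0.714 in OPCs. The OPC values rest on 49 and 33 counts, and neuron replicate 2 on 65. Means were 81.4 ± 2.69 CPM in astrocytes, 10.3 ± 12.9 in neurons and 1.30 ± 0.828 in OPCs (SD, n = 2 each).

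In OPCs Nqo1 was 63.9-fold lower than in astrocytes, with a fitted log2 difference of -6.00 (SE 1.32; adjusted p = 0.0164 by edgeR). That call held in a fit of the 4 libraries compared (edgeR adjusted p = 0.000389), which leaves out the spread of the neuron libraries. Between neurons and astrocytes the difference did not pass the test: the log2 fold change was -2.98 ± 1.13 (SE; 95% interval -5.65 to -0.32; edgeR adjusted p = 0.0873). It passed both without neuron replicate 1 (-6.18, edgeR adjusted p = 0.00138) and without neuron replicate 2 (-2.07, 0.0372), and in DESeq2 (0.0151) and limma-voom (0.0242). The OPC call was lost without astrocyte replicate 1 (-5.84, edgeR adjusted p = 0.0619), astrocyte replicate 2 (-5.99, 0.0523), OPC replicate 1 (-6.83, 0.0733) or OPC replicate 2 (-5.35, 0.111), and with no low-count filter (0.132).

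The proportion of Nqo1 to Nfe2l2 counts, which does not depend on how libraries are scaled, was close between the replicates of astrocytes and of OPCs. There were 38.2 and 40.9 Nqo1 counts per 100 Nfe2l2 counts in the astrocyte libraries and 96.1 and 94.3 in the OPC libraries. The OPC values rest on 49 and 33 Nqo1 counts over 51 and 35 Nfe2l2 counts, too few to show that the proportion was steady. In neurons the values were 250.2 and 114. Astrocytes thus had the lowest proportion of Nqo1 to Nfe2l2, although both genes were highest there. For Hmox1 the replicates spread more widely, at 125 and 55.9 counts per 100 Nfe2l2 counts in astrocytes, 231 and 132 in neurons, and 229 and 1014 in OPCs. These proportions were not tested.

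For the enzymes that remove superoxide and hydrogen peroxide the estimated differences between cell types were smaller. Sod1, the cytosolic superoxide dismutase gene, stood at 158 and 212 CPM in astrocytes, 95.4 and 44.4 in neurons, and 43.3 and 62.1 in OPCs. Its means were 185 ± 38.4, 69.9 ± 36.1 and 52.7 ± 13.3 CPM (SD, n = 2 each). Sod1 was 3.50-fold lower in OPCs than in astrocytes, with a fitted log2 difference of -1.81 (SE 0.45; adjusted p = 0.0265 by edgeR). That call held in a fit of the 4 libraries compared (edgeR adjusted p = 0.00703), which leaves out the spread of the neuron libraries. For neurons the log2 fold change was -1.40 ± 0.45 (SE; 95% interval -2.46 to -0.34; edgeR adjusted p = 0.0536), which did not pass. It passed in DESeq2 (adjusted p = 0.0297), with no low-count filter (edgeR adjusted p = 0.0255) and in limma-voom (adjusted p = 0.0364). In the fit without neuron replicate 1, which leaves 1 neuron library, the neuron estimate was -2.06. The OPC call was lost without astrocyte replicate 1 (-1.89, 0.0621), astrocyte replicate 2 (-1.54, 0.107), OPC replicate 1 (-1.57, 0.161) or OPC replicate 2 (-2.01, 0.0953), with total counts in place of TMM (-1.40, 0.0663) and with the replicate block (-1.81, 0.0521).

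Sod2, the mitochondrial superoxide dismutase gene, was at 108 and 70.3 CPM in astrocytes, 57.0 and 27.2 in neurons, and 35.9 and 35.0 in OPCs. The 2 OPC libraries lay between the 2 neuron libraries. Means were 89.3 ± 26.9 CPM in astrocytes, 42.1 ± 21.1 in neurons and 35.4 ± 0.657 in OPCs (SD, n = 2 each). The log2 fold change was -1.09 for neurons against astrocytes (95% interval -2.09 to -0.08; edgeR adjusted p = 0.097) and -1.33 for OPCs against astrocytes (-2.35 to -0.32; 0.0615), and neither passed the test. The OPC difference passed in a fit of the 4 libraries compared (edgeR adjusted p = 0.017), which leaves out the spread of the neuron libraries. It also passed with no low-count filter (0.0315), with the replicate block (0.0468) and in DESeq2 (0.0365). In the fit without neuron replicate 1, which leaves 1 neuron library, the neuron estimate was -1.72.

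Cat, the catalase gene, differed least of the 6 against astrocytes. Its level was 106 and 72.7 CPM in astrocytes, 56.6 and 70.6 in neurons, and 61.9 and 35.8 in OPCs. Neuron replicate 2 and astrocyte replicate 2 were nearly level. Means were 89.2 ± 23.3, 63.6 ± 9.90 and 48.9 ± 18.5 CPM (SD, n = 2 each). The log2 fold change was -0.49 for neurons (95% interval -1.38 to 0.41; edgeR adjusted p = 0.366) and -0.87 for OPCs (-1.77 to 0.03; 0.151). These intervals do not show that Cat was equal in the 3 cell types. It was called in no alternative setting.

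**Figure D2:**
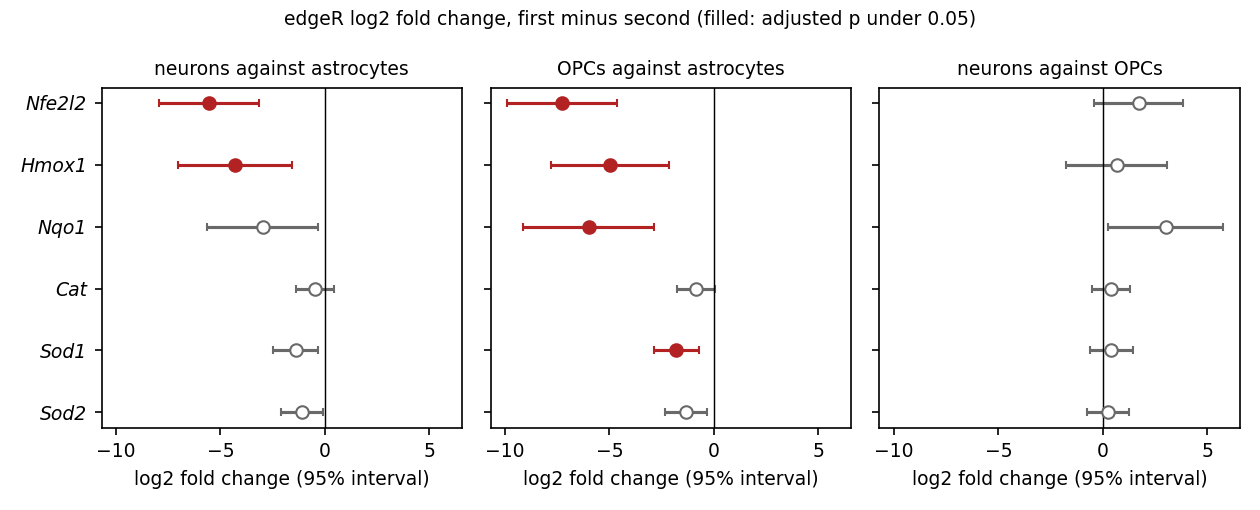
Log2 fold change of each gene in the 3 comparisons, with 95% intervals from the edgeR fit; filled points have an adjusted p under 0.05. Against astrocytes the estimates of Nfe2l2, Hmox1 and Nqo1 lie between -7.27 and -2.98 and those of Cat, Sod1 and Sod2 between -1.81 and -0.49; no point is filled for neurons against OPCs.

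Counted together, 2 of the 6 genes were called lower in neurons than in astrocytes (Nfe2l2 and Hmox1). In OPCs 4 of 6 were called lower (Nfe2l2, Hmox1, Nqo1 and Sod1), and none was called higher in either cell type. Over all genes tested, 30.4% were called between neurons and astrocytes, 15.9% being lower and 14.5% higher in neurons. Between OPCs and astrocytes 25.5% were called, 14.9% being lower and 10.6% higher in OPCs. The median log2 fold change of the 6 genes was -2.19 in neurons and -3.38 in OPCs, beside -0.06 and -0.04 over all genes. The 2 comparisons share their astrocyte libraries. With total counts in place of TMM the median of all genes moved to 0.40 and 0.39, and the share of calls on the higher side went from 47.7% to 66.2% for neurons and from 41.6% to 58.6% for OPCs. The 6 estimates stayed negative under that scaling in both comparisons, but Cat then stood at -0.02 for neurons. Cat libraries then overlapped with those of astrocytes in both comparisons, and Sod2 libraries did so in neurons.

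Between neurons and OPCs the edgeR test called 0 of the 6 genes, where 12.4% of all genes were called, 7.73% higher and 4.69% lower in neurons. At an unadjusted p under 0.05 there was 1, Nqo1. DESeq2 called 1, again Nqo1 (adjusted p = 0.0188), and limma-voom called 0. The Nqo1 log2 fold change was 3.01 (95% interval 0.26 to 5.77; edgeR adjusted p = 0.144), and that of Nfe2l2 was 1.72 (-0.41 to 3.84; 0.257). Hmox1 stood at 0.65 (-1.77 to 3.08), Sod1 at 0.41 (-0.64 to 1.45), Cat at 0.38 (-0.52 to 1.28) and Sod2 at 0.25 (-0.75 to 1.25). The median of the 6 was 0.53, beside 0.05 over all genes. For Nfe2l2, Hmox1, Nqo1, Sod1 and Sod2 the sign rested on neuron replicate 1. Without it their estimates were -0.42, -2.24, -0.16, -0.25 and -0.38. Without neuron replicate 2 Nfe2l2 and Nqo1 stood at 2.55 and 3.94. The Hmox1 sign also reversed with all 6 libraries kept, to -0.12 in limma-voom and -0.20 with the replicate block.

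**Figure D3:**
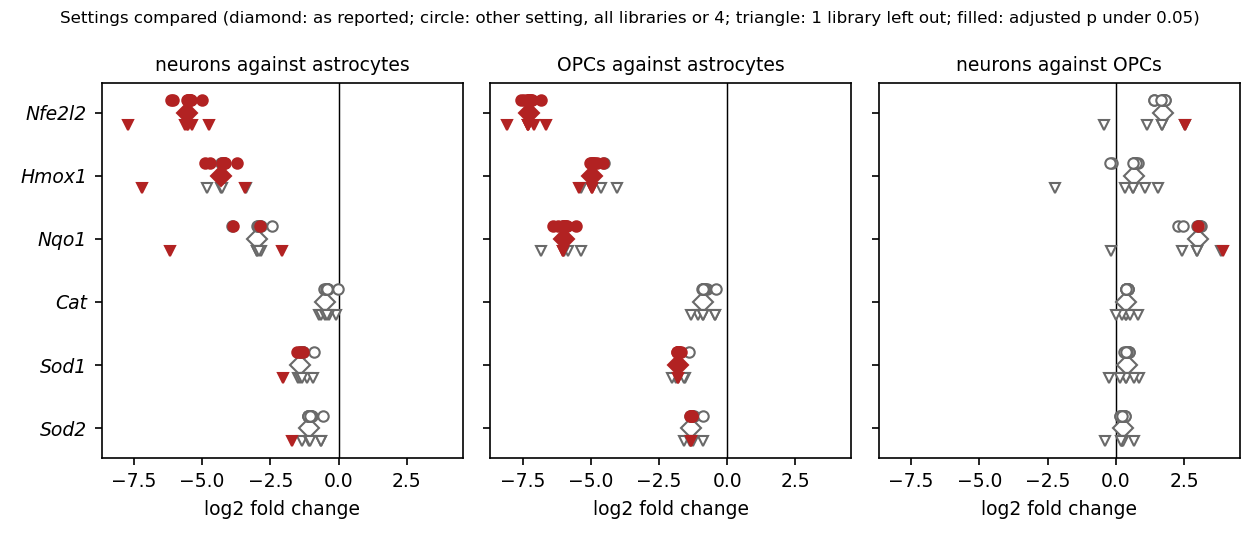
Log2 fold change of each gene under each setting; diamonds are the values reported, circles other settings with all libraries or the 4 compared, triangles fits with 1 library left out, and filled symbols have an adjusted p under 0.05. Nfe2l2 is filled in each setting against astrocytes, and the neuron-to-OPC estimates of 5 genes fall on both sides of 0.

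Of the 6 genes, Nfe2l2, Hmox1 and Nqo1 showed the widest gaps between the 2 neuron libraries. Neuron replicate 1 was above neuron replicate 2 by 7.86-fold for Nfe2l2, 13.8-fold for Hmox1 and 17.3-fold for Nqo1. Counting error is small beside this: the 95% Poisson intervals were 18.5 to 20.3 CPM and 0.868 to 1.43 CPM for Nqo1. Sod1 and Sod2 were 2.15-fold and 2.10-fold higher in the same library, while Cat was 1.25-fold higher in replicate 2. The share of all genes with a larger excess in replicate 1 was 2.70% for Nfe2l2, 1.14% for Hmox1 and 0.857% for Nqo1.

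The 1735 genes called more than 8-fold lower in OPCs than in astrocytes, a set chosen after the data were seen and holding Nfe2l2, Hmox1 and Nqo1, had a median log2 excess of 0.76 in neuron replicate 1, against 0.04 over all genes. Of that set 69.9% were higher in neuron replicate 1, against 52.2% of all genes. In astrocytes 59.7% of the set were higher in replicate 1, with a median of 0.19. More than 8-fold excess was seen in 7.38% of that set and in 2.49% of all genes. As a share of the astrocyte mean, neuron replicate 1 held 3.76% for Nfe2l2, 9.39% for Hmox1 and 23.8% for Nqo1. In neuron replicate 2 the shares were 0.478%, 0.681% and 1.38%. Whether astrocyte RNA had a part in these values was not tested.

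Within OPCs, Nfe2l2 and Nqo1 were both higher in replicate 1, by 2.59-fold and 2.64-fold, and 4.27% and 4.06% of all genes had a larger excess there. Cat was 1.73-fold higher in the same library. Hmox1 was 1.71-fold and Sod1 1.43-fold higher in replicate 2. Astrocyte replicates were within 1.12-fold for Nfe2l2 and 1.05-fold for Nqo1, and 2.50-fold apart for Hmox1, where 3.71% of all genes had a larger excess in replicate 1.

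**Figure D4:**
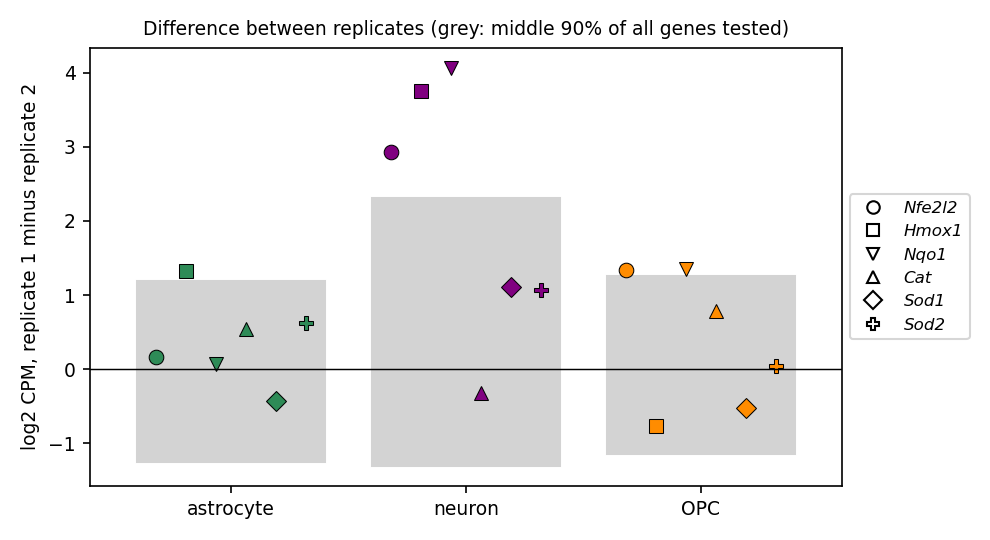
Difference in log2 CPM between replicate 1 and replicate 2 of each cell type for the 6 genes; grey boxes span the middle 90% of all genes tested. In neurons Nfe2l2, Hmox1 and Nqo1 lie at 2.93, 3.75 and 4.07, above the box, and Cat at -0.32.

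The proportion of the 2 superoxide dismutase genes ranged over similar values in the 3 cell types. There were 68.8 and 33.2 Sod2 counts per 100 Sod1 counts in astrocytes, 59.7 and 61.2 in neurons, and 82.9 and 56.3 in OPCs. The log2 ratio was -1.07 ± 0.74 in astrocytes, -0.73 ± 0.02 in neurons and -0.55 ± 0.39 in OPCs (SD, n = 2 each). Astrocyte replicate 2 had the lowest value, and the astrocyte range covered the neuron values. With 2 libraries against 2, no exact test of this ratio can pass the threshold, and none was run.

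Profiles over the 6 libraries were each centred on their own mean. Nfe2l2, Hmox1 and Nqo1 then lay nearer each other than to Cat, Sod1 and Sod2. The measure depends on how widely a gene ranges. Group means spanned 5.14 to 7.36 log2 units for Nfe2l2, Hmox1 and Nqo1 and 0.89 to 1.82 for Cat, Sod1 and Sod2. The root mean square difference in log2 CPM was 0.92 between Nfe2l2 and Nqo1, 1.17 between Hmox1 and Nqo1 and 1.26 between Nfe2l2 and Hmox1. Among Cat, Sod1 and Sod2 it was 0.40 to 0.77, and between these 2 sets of genes 1.84 to 3.04. Outside the 6, of 11075 genes with a mean of at least 10 CPM, the closest to Nfe2l2 was ENSRNOG00000021437, at 0.29. That gene stood at 773 and 605 CPM in astrocytes, 18.0 and 4.52 in neurons, and 6.08 and 2.29 in OPCs. The closest to Nqo1 was ENSRNOG00000000805, at 0.30, with 262 and 271 CPM in astrocytes, 99.4 and 4.74 in neurons, and 11.0 and 3.23 in OPCs. Its wide gap between the neuron libraries follows from how the gene was picked, since both neuron libraries entered the measure. Within 0.5 of Nfe2l2 there were 7 genes, and 2 within 0.5 of Nqo1, whereas Cat had 1859 such neighbours, Sod2 929 and Sod1 361.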

How the data were processed

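Messenger RNA of 6 libraries was sequenced on an Illumina instrument from 250 ng of RNA each, per the labels' protocols. The deposited table holds raw counts per gene. For the aligner, counter, build, annotation and strand setting, nothing is given in the sources used here, so overlapping genes may share reads. Each column was tied to its sample through the description label. None of the 6 genes had counts identical to another gene's.

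The filterByExpr filter (minimum count 10, minimum total 15) kept 18206 genes. After TMM scaling, edgeR 4.0.16 in R 4.3.3 fitted all 6 libraries together by robust quasi-likelihood, with cell type as the factor and 3 residual degrees of freedom. P-values were adjusted over all tested genes by Benjamini-Hochberg, with a threshold of 0.05. SEs and 95% intervals were derived from the F statistic. Log2 CPM used a prior count of 2. The edgeR steps were also run on simulated counts, in which each gene had the same spread in all libraries. That run checks the steps and not the results.

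As alternatives, DESeq2 1.42.0 and limma-voom (limma 3.58.1) replaced edgeR. RLE factors, upper-quartile factors or bare totals replaced TMM. The filter was dropped or set to a mean of 5 CPM, the fit was cut to 4 libraries or given a replicate block, and each library was omitted in turn. An omission leaves 1 library in that cell type, so calls gained or lost in such fits are weak evidence. Between cell types, the deviations of libraries with the same replicate number had correlations of 0.147, 0.292 and 0.162 across genes. No label says what a number marks. No chance level was set for these correlations, and whether the numbers mark pairs was not tested. All 6 genes were named, and the nearest profile was named for the 2 genes with the widest range of group means. RefSeq names matched 0 identifiers, so planned pathway and marker lists were not used. The genes and lists were chosen with earlier results of these data known, and the promoter motifs after the sequences were seen.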

Additional observations from a re-analysis of the deposited data

How the results depend on the processing

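Against astrocytes, no estimate of the 6 genes changed sign under any alternative. Over all 3 comparisons, called values stayed called in 68 of 90 instances and lost the call in 22. Values not called became called in 18 of 180 instances and reversed in 7. These counts include fits with 1 library left out, where 1 cell type has no replicate. The number of genes called for neurons against astrocytes (2) was 4 with DESeq2, 4 with limma-voom and 1 with only the 4 libraries compared, and for neurons against OPCs (0) it was 1 with DESeq2. With 1 library left out, it ranged from 1 to 5 for neurons against astrocytes, from 1 to 5 in the OPC comparison with astrocytes (4 with all libraries) and from 0 to 2 for neurons against OPCs. The reversals, all for neurons against OPCs, were Hmox1 with limma-voom (-0.12) and with the replicate block (-0.20), and, without neuron replicate 1, Nfe2l2 (-0.42), Hmox1 (-2.24), Nqo1 (-0.16), Sod1 (-0.25) and Sod2 (-0.38). Without neuron replicate 2 these 5 stood at 2.55, 1.55, 3.94, 0.86 and 0.69. The cause was not tested. The log2 ratio of Sod2 to Sod1 with 1 library left out lay between -1.59 and -0.54 in astrocytes, -0.74 and -0.71 in neurons, and -0.83 and -0.27 in OPCs.

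The replicate block gave 2, 3 and 0 genes called, against 2, 4 and 0. For OPCs against astrocytes it took the call from Hmox1 (edgeR adjusted p = 0.0528) and Sod1 (0.0521) and gave one to Sod2 (0.0468). The block changed no other call of the 6 genes. Over all genes, calls between neurons and OPCs (2260) were 4031 with DESeq2, 225 without OPC replicate 1 and 116 without OPC replicate 2. For OPCs against astrocytes (4649) omitting astrocyte replicate 1 gave 2645, and omitting OPC replicates 1 and 2 gave 2276 and 2182, and for neurons against astrocytes (5532) 3306 and 3486 without astrocyte replicates 1 and 2. With total counts alone, 3 of 18 mean levels moved by more than the spread of their replicates. Depth limits Nfe2l2 and Nqo1 in OPCs, where they rest on 33 to 51 counts per library.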
